A study of Mus musculus with 24 samples.

Results

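The Period genes Per1, Per2 and Per3, the cryptochrome genes Cry1 and Cry2, and Ciart form the negative limb of the mammalian circadian clock, and these 6 genes were read from a count table of 51826 mouse genes by matching their symbols to the Ensembl identifiers of the table. All 6 were found, and all 6 passed the filter on low counts in each comparison below. The counts come from RNA-Seq of the dorsal hippocampus of C57BL/6j mice aged 2 to 4 months, all labelled male although the methods name both sexes for the study as a whole, which were either WT or homozygous for point mutations in the KIX domain of the coactivator CBP that keep phosphorylated CREB from binding (CBP KIX/KIX). The mutation is carried in every cell of the body, and the WT mice were littermates from heterozygous matings.

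Groups were defined by genotype and by training. In RNA-Seq 1, made from total RNA depleted of ribosomal RNA, 3 WT homecage mice were compared with 3 WT mice and 3 CBP KIX/KIX mice killed soon after training in the Morris water maze (MWM), a spatial navigation task. In RNA-Seq 2, made from polyA-selected RNA, 3 WT homecage mice and 4 CBP KIX/KIX homecage mice were compared with 4 WT mice and 4 CBP KIX/KIX mice killed soon after contextual fear conditioning (CFC), in which a foot shock is paired with a chamber. The methods state handling for the homecage controls of CFC and do not state it for those of MWM. They place all experiments at the same time of day in the light phase, so the data hold no course over the daily cycle. The paper reports a later activity peak and a longer daily period in constant darkness in the mutants. Whether both genotypes were at the same phase of their clock was not tested. The library type of the CBP KIX/KIX homecage samples is not stated in their labels, and RNA-Seq 1 held no CBP KIX/KIX homecage group. Levels are therefore compared within an experiment, and every SD given is a spread between individual mice.

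In the clock, the activators CLOCK and BMAL1 (encoded by Arntl) drive transcription from E-box elements of the Period, cryptochrome and Ciart genes. PER and CRY proteins accumulate, enter the nucleus and repress CLOCK and BMAL1, while Ciart (also called CHRONO) encodes a further repressor of the same complex. Per1 and Per2 also respond within minutes to cAMP and calcium signals through CREB sites, which is how light resets the clock in the suprachiasmatic nucleus and how neuronal activity reaches clock genes elsewhere in the brain.

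Per1 lies at chr11:69095217-69109960 on the plus strand of GRCm38. Per2 (chr1:91415982-91459324), Per3 (chr4:151003652-151044665), Cry1 (chr10:85131700-85185064), Cry2 (chr2:92403646-92434043) and Ciart (chr3:95878503-95882251) lie on the minus strand. RefSeq start sites (GRCm38.p6) were available for 5 of the 6 members, all but Per2. The 250 bases before the start site are printed for those 5, because the members that differed by genotype (Per1, Per3, Ciart) and those that did not pass the test (Cry1, Cry2) are all targets of the same clock loop. Capitals mark the E-box CACGTG, the D-box TTATGTAA or TTACGTAA bound by PAR bZIP factors such as DBP, and the core TGACG of the CREB site, each searched on both strands. The regions are chr11:69098699-69098948 on the plus strand for the first Per1 start site, and, on the minus strand, chr4:151044666-151044915 for Per3, chr3:95882229-95882478 for Ciart, chr10:85185055-85185304 for Cry1 and chr2:92434070-92434319 for Cry2.
Per1: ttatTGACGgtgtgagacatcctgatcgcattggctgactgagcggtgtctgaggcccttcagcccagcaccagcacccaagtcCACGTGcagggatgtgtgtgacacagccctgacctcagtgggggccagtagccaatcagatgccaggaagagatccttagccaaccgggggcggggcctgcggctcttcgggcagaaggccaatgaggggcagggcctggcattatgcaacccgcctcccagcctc
Per3: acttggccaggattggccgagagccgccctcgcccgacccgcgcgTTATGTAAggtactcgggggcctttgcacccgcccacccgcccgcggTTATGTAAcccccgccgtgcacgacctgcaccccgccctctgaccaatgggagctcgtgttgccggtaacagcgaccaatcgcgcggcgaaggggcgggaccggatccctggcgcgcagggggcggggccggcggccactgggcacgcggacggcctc
Ciart: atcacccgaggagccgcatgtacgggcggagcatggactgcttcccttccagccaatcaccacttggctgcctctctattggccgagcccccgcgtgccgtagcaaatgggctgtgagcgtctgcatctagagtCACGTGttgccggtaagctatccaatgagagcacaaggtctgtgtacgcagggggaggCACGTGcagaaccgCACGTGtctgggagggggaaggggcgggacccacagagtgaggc
Cry1: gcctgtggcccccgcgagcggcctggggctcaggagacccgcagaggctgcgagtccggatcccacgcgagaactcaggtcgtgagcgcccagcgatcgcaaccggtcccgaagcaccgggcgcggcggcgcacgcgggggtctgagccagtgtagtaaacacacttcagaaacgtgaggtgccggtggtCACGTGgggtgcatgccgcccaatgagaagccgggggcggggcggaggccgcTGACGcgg
Cry2: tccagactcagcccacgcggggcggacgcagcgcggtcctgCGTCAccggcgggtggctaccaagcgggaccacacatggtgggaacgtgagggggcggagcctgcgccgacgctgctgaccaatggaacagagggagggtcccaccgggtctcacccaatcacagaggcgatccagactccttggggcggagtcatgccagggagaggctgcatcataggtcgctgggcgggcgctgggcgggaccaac

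The Ciart window held 3 E-boxes, which began 116, 58 and 44 bases before the start site, and the Per1 and Cry1 windows held 1 each. An E-box occurs in 7.15% of the 32851 RefSeq promoter windows of the same 300 bases (250 before and 50 after the start). The variant E'-box CACGTT, not marked in the sequences, had 1 match each in the Cry1 and Cry2 windows and occurs in 4.68% of all windows. The Per3 window held 2 D-boxes and no E-box, and a D-box occurs in 1.06% of all windows. The Per1, Cry1 and Cry2 windows each held 1 TGACG core, which 20.8% of all windows hold, and a second Per1 start site held another. No member's window held the palindromic CREB site TGACGTCA, which 1.79% of windows hold. These are matches of letters, and no binding was measured here.

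Library totals ran from 38.2 to 65.7 M counts (M, mega) in RNA-Seq 1 and from 15.4 to 46.1 M in RNA-Seq 2, where replicates 3 and 4 (15.4 to 20.6 M) were shallower than replicates 1 and 2 (30.1 to 46.1 M) in every group. The dissections held hippocampal neurons: summed levels of 8 dorsal hippocampus markers lay between 849 and 1517 CPM (counts per M counts of the library, after upper-quartile scaling) in all 24 libraries, while 6 hypothalamic and suprachiasmatic markers, among them Avp and Vip, summed to at most 20.3 CPM. Choroid plexus markers varied from 209 to 6693 CPM between libraries of all groups. The library of CBP KIX/KIX homecage replicate 3 stood apart: Fos, an activity-induced gene, was at 117 CPM against 1.83 to 5.18 CPM in the 6 other homecage libraries of RNA-Seq 2 and 17.99 to 33.6 CPM after CFC, and all 10 activity genes examined were above every other homecage library. Homecage results are therefore given with and without it. WT homecage replicate 3 of RNA-Seq 1 had the lowest summed neuronal markers of its group (3598 CPM against 4663 and 5037 CPM) and 2067 CPM of choroid plexus markers against 226 and 228 CPM, and the MWM training results are also given without it.

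Corrected for exon length, Cry2 was the most abundant member and Ciart or Cry1 the least. In WT homecage mice of RNA-Seq 2 the level of Cry2 was 23.6 ± 2.88 CPM per kb (SD, n = 3), followed by Per1 at 13.8 ± 1.33, Per2 at 7.38 ± 0.229, Per3 at 6.22 ± 0.677, Ciart at 4.54 ± 0.294 and Cry1 at 3.57 ± 0.0802 CPM per kb. The same order held in WT homecage mice of RNA-Seq 1 except that Cry1 (3.96 ± 0.225 CPM per kb) lay above Ciart (3.22 ± 0.642 CPM per kb). An antisense transcript, D930015M05Rik, shares exon sequence with Cry2, and its counts were 0.334% to 2.07% of those of Cry2. Camta1 overlaps Per3 on the same strand and C920021L13Rik overlaps Ciart on the opposite strand, in both cases without shared exon sequence.

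**Figure D1:**
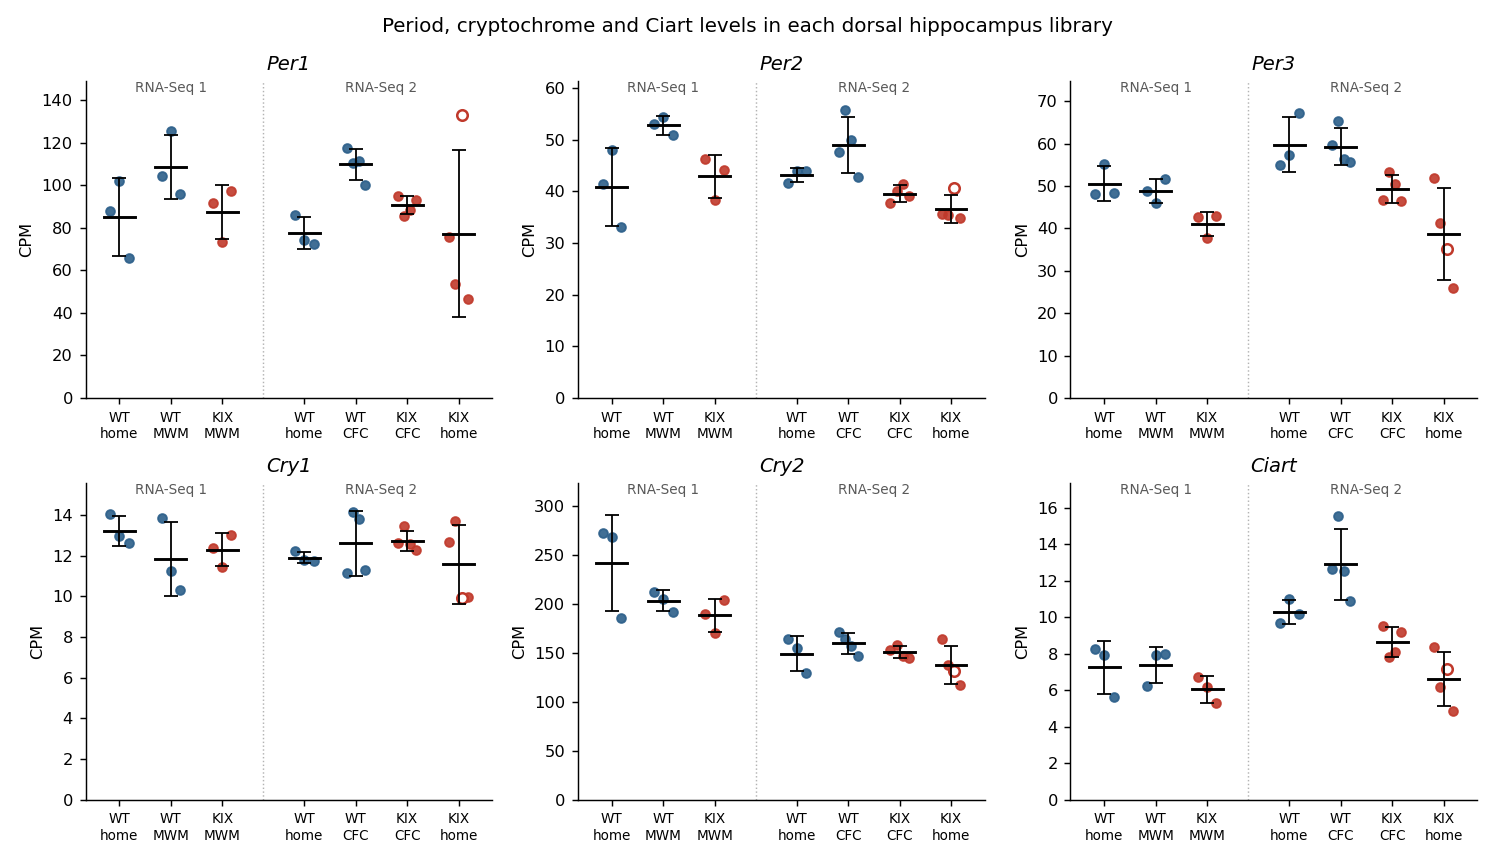
Level of each member in CPM (vertical axis from 0) in every library, with 1 point per mouse, WT in blue, CBP KIX/KIX in red, and the group mean and SD in black; the open circle is CBP KIX/KIX homecage replicate 3. The means of Per1, Per2, Per3, Cry2 and Ciart were below WT in the mutants in the MWM, CFC and homecage groups. For Per1 in the homecage they were nearly equal (77.2 against 77.6 CPM). Cry1 means stayed between 11.6 and 13.2 CPM.

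The first comparison asked which member genes differ between trained CBP KIX/KIX and trained WT mice. Per1, Per2, Per3 and Ciart were lower in the trained mutants, by 16.5% to 26.7%, and Cry1 and Cry2 did not pass the test in edgeR. DESeq2 called 5 members, Cry2 being the additional one.

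Per1, the Period gene with the strongest immediate response to stimulation, was at 104, 125 and 96.1 CPM in the 3 WT mice after MWM and at 91.6, 73.2 and 97.2 CPM in the 3 mutants. After CFC it was at 118, 111, 111 and 99.9 CPM in WT mice and at 94.7, 85.6, 88.4 and 93.2 CPM in mutants. The groups overlapped after MWM through a single WT and a single mutant mouse, and did not overlap after CFC.

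Per2, whose protein is the main scaffold of the repressor complex, was at 53.1, 54.4 and 50.9 CPM in WT mice after MWM and at 46.2, 38.2 and 44.2 CPM in mutants. After CFC it was at 47.6, 55.7, 49.9 and 42.8 CPM in WT mice and at 37.7, 40.1, 41.5 and 39.0 CPM in mutants. Every mutant was below every WT mouse in both tasks.

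Per3, a Period gene dispensable for rhythm generation itself, was at 48.9, 46.0 and 51.7 CPM in WT mice after MWM and at 42.6, 37.8 and 42.9 CPM in mutants. After CFC it was at 59.7, 65.3, 56.3 and 55.7 CPM in WT mice and at 46.8, 53.4, 50.5 and 46.6 CPM in mutants. Here too the genotypes did not overlap in either task.

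Ciart had the largest relative difference of the 6 in the pooled fit and after CFC, but not after MWM, where Per1 and Per2 differed by more. It was at 6.25, 7.91 and 8.002 CPM in WT mice after MWM and at 6.72, 6.15 and 5.27 CPM in mutants, so that the groups overlapped. After CFC it was at 12.6, 15.5, 12.5 and 10.9 CPM in WT mice and at 9.52, 7.83, 8.10 and 9.20 CPM in mutants, without overlap.

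The cryptochrome genes differed less between genotypes. Cry2 went in the same direction at a smaller size (log2 -0.11 after MWM and -0.08 after CFC), and Cry1 did not. Cry1, which encodes the strongest of the CRY repressors, was at 13.8, 11.3 and 10.3 CPM in WT mice and 12.4, 11.4 and 13.03 CPM in mutants after MWM. After CFC it was at 11.1, 14.1, 13.8 and 11.3 CPM in WT mice and 12.6, 13.4, 12.6 and 12.3 CPM in mutants. Cry2 was at 212, 205 and 192 CPM in WT mice and 190, 171 and 204 CPM in mutants after MWM, and at 171, 164, 157 and 146 CPM in WT mice and 153, 158, 147 and 145 CPM in mutants after CFC. Both genes overlapped between genotypes in both tasks.

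All 7 trained mutants were below the mean of the WT mice trained in the same task for Per1, Per2, Per3 and Ciart, against 6 of 7 for Cry2 and 3 of 7 for Cry1. Groups without overlap and with lower mutants were seen for 2 members after MWM (Per2 and Per3) and for 4 after CFC (Per1, Per2, Per3 and Ciart), while 9.01% of 22276 genes in the first case and 1.11% of 18851 genes in the second showed the same. Per2 and Per3 met this in both tasks, as did 0.274% of the 18263 genes tested in both.

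The 14 trained libraries were fitted together in edgeR with the experiment and 4 factors of unwanted variation as covariates, and p-values were adjusted over all genes by the method of Benjamini and Hochberg. Per1 fell by 0.30 on the log2 scale (SE 0.04, adjusted p = 0.00215), Per2 by 0.31 (SE 0.05, adjusted p = 0.00688), Per3 by 0.26 (SE 0.04, adjusted p = 0.00655) and Ciart by 0.45 (SE 0.08, adjusted p = 0.0128). In percent these are decreases of 18.6, 19.3, 16.5 and 26.7. Cry2 had a log2 difference of -0.09 (95% interval -0.16 to -0.03, adjusted p = 0.105) and Cry1 of 0.04 (95% interval -0.10 to 0.18, adjusted p = 0.815). Thus 4 of 6 members passed and were lower, against 1.43% of the 21489 genes tested (DESeq2 called 884 genes in either direction), and the median log2 difference of the members was -0.28 against -0.01 for all genes.

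The size of these differences did not rest on the factors, but the calls did. Fitted without factors, the log2 differences of Per1, Per2, Per3 and Ciart were -0.30, -0.31, -0.26 and -0.45 and their adjusted p-values 0.142, 0.0536, 0.0743 and 0.131, with 4 genes called in all. With normalization for GC content, Per3 missed the threshold (adjusted p = 0.0539) and the other 3 passed. When any 1 of the 14 libraries was left out and the factors were kept, these 4 members kept passing, with adjusted p-values of at most 0.0292. Those fits called 201 to 878 genes.

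**Figure D2:**
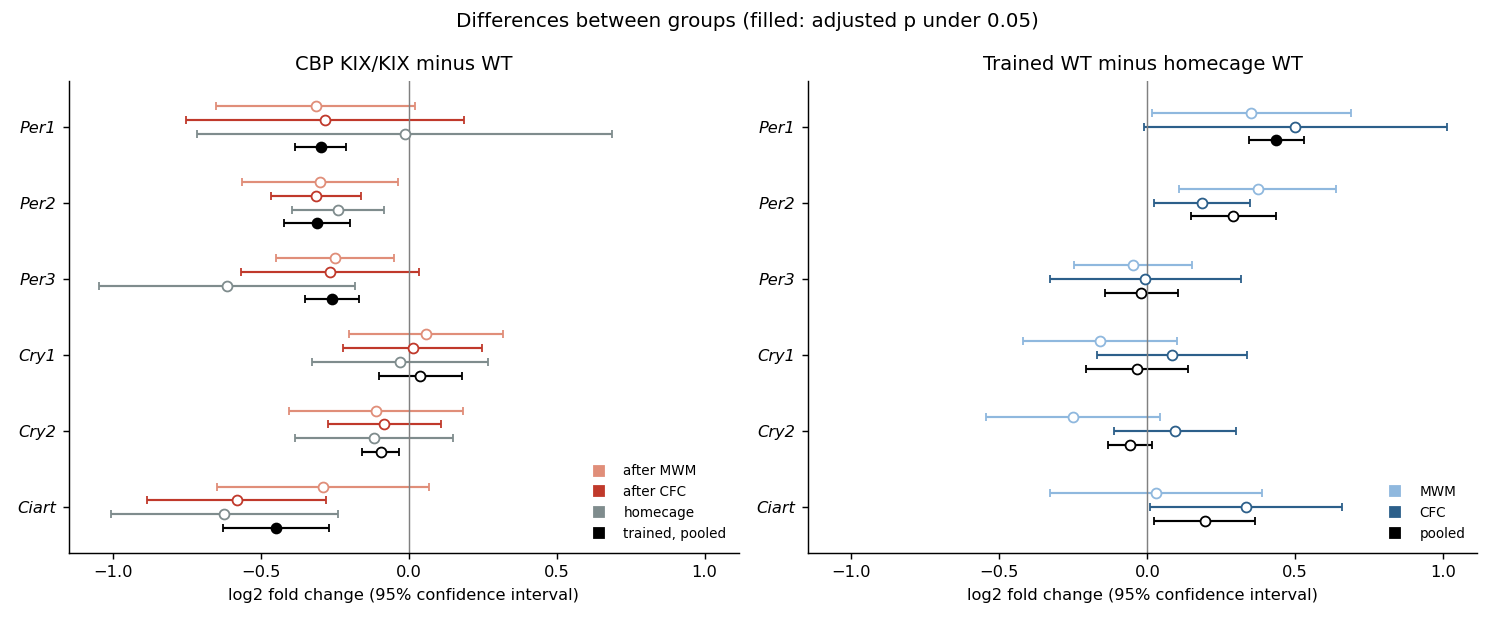
Log2 fold changes with 95% confidence intervals (horizontal axis) of the 6 members for CBP KIX/KIX minus WT (left) and trained minus homecage WT (right), by task and pooled; filled points had an adjusted p under 0.05. Intervals of the genotype difference lay below 0 in the pooled fit for 5 members, and the task-wise points of the Period genes sat beside the pooled ones.

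Fitted within each task, no member passed the adjusted threshold in edgeR or DESeq2, nor in edgeR with only the 2 groups compared. The fits given below held all libraries of the experiment, homecage groups included, with a single shared spread. For CFC these include CBP KIX/KIX homecage replicate 3. After MWM, edgeR called 0% of 22276 genes (1286 had an unadjusted p under 0.05, and DESeq2 called 7). The log2 differences were -0.31 for Per1, -0.30 for Per2, -0.25 for Per3 and -0.29 for Ciart, and 2 members had an unadjusted p under 0.05. After CFC, edgeR called 0.0106% of 18851 genes. The log2 differences were -0.28 for Per1, -0.31 for Per2, -0.27 for Per3 and -0.58 for Ciart, again with 2 members at an unadjusted p under 0.05, as had 441 of all genes, and DESeq2 called 4 genes. The genotype difference was also compared between the tasks, which cannot be told apart from library type and sequencing run. No member passed, edgeR calling 0% of 21489 genes, 1389 having an unadjusted p under 0.05 and DESeq2 calling none. The widest gap was that of Ciart (log2 -0.30, 95% interval -0.70 to 0.09, adjusted p = 0.763), whereas those of Per1, Per2 and Per3 were 0.02, -0.02 and -0.03, each with an interval that reached at least 0.18 on either side of 0.

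The homecage groups asked whether the difference was there without training. Per2, Per3 and Ciart were lower in every CBP KIX/KIX homecage mouse than in every WT homecage mouse, but no member passed the adjusted threshold. Ciart was at 9.66, 10.98 and 10.2 CPM in WT mice and at 8.34, 6.15, 7.17 and 4.84 CPM in mutants. Per3 was at 54.9, 57.3 and 67.2 CPM in WT mice and at 51.9, 41.3, 35.1 and 26.1 CPM in mutants. Per2 was at 41.7, 43.9 and 44.0 CPM in WT mice and at 35.5, 35.5, 40.7 and 34.9 CPM in mutants. The mutants varied more among themselves than any other group for Per3 (SD 10.9 CPM). In the same 4 mutants, in the same order, 6 astrocyte markers summed to 3734, 4021, 4712 and 5646 CPM, against 3562 to 3694 CPM in WT homecage mice, so the mouse lowest in Per3 was the highest in astrocyte markers. Of these markers 3 were higher and 3 lower in homecage mutants, none past the threshold in edgeR, with a median log2 difference of 0.10. The part of this in the result was not tested, and in bulk tissue fewer cells of a type cannot be told apart from less RNA per cell.

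Per1 was at 86.2, 74.4 and 72.2 CPM in WT homecage mice and at 75.5, 53.8, 133 and 46.4 CPM in mutants. The value of 133 CPM is that of replicate 3, the library with raised Fos, and it was above all 8 libraries of mice trained in CFC, whose highest was 118 CPM. The 3 other mutants lay between 46.4 and 75.5 CPM and still overlapped with WT mice through the highest of them.

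In the edgeR fit of the 7 homecage libraries the log2 differences were -0.62 for Ciart (95% interval -1.01 to -0.24), -0.61 for Per3 (-1.04 to -0.18), -0.24 for Per2 (-0.39 to -0.08), -0.12 for Cry2 (-0.39 to 0.15), -0.03 for Cry1 (-0.33 to 0.27) and -0.01 for Per1 (-0.71 to 0.69). The lowest adjusted p was 0.786, 3 members and 1144 of 18682 genes had an unadjusted p under 0.05, and DESeq2 called 59 genes and no member. Across all genes 0.0107% of 18682 passed. Groups without overlap and with lower mutants were seen for 3 of the 6 members and for 3.6% of 18851 genes. Without replicate 3 these were 3 members and 4.97% of genes, and the log2 differences became -0.65 for Ciart, -0.57 for Per3, -0.29 for Per2 and -0.40 for Per1, none of them past the threshold. The test of whether the genotype difference changed with CFC passed for no member: edgeR called 0% of 18851 genes, with 903 at an unadjusted p under 0.05 and 1 called by DESeq2. That change was 0.34 for Per3 on the log2 scale (95% interval -0.10 to 0.79), 0.04 for Ciart (-0.40 to 0.49) and -0.07 for Per2 (-0.30 to 0.15). For Per1 it was -0.26 with all libraries and 0.11 without replicate 3.

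Setting the 3 genotype comparisons side by side, which share no library, Per2 had log2 differences of -0.30, -0.31 and -0.24 after MWM, after CFC and in the homecage. Ciart had -0.29, -0.58 and -0.62 and Per3 -0.25, -0.27 and -0.61 in the same order. Cry1 stayed between -0.03 and 0.06. In a fit with the homecage libraries as an added stratum and no factors, chosen after seeing the data, Per2 (log2 -0.28, adjusted p = 0.00437) and Ciart (log2 -0.51, adjusted p = 0.0118) passed, Per3 had an adjusted p of 0.0855 and Per1 of 0.606, with 24 of 21642 genes called. Without homecage replicate 3 the values were 0.00186 for Per2, 0.0164 for Ciart, 0.122 for Per3 and 0.0891 for Per1, with 21 of 21656 genes called.

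The next comparison asked which members respond to training in WT mice. Per1 rose by 35.2%, and this was the only member past the threshold. In RNA-Seq 1 it was at 88.1, 102 and 65.7 CPM in homecage mice against 104, 125 and 96.1 CPM after MWM, with overlap. In RNA-Seq 2 it was at 86.2, 74.4 and 72.2 CPM in homecage mice against 118, 111, 111 and 99.9 CPM after CFC, without overlap. All 7 trained WT mice lay above the homecage mean of their experiment.

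In the pooled edgeR fit of the 13 WT libraries with 3 factors, Per1 was higher by 0.44 on the log2 scale (SE 0.04, adjusted p = 0.000314). Per2 was higher by 0.29 (SE 0.07, 95% interval 0.15 to 0.43) and did not pass (adjusted p = 0.0640). The remaining members had log2 differences of 0.19 (Ciart, adjusted p = 0.238), -0.02 (Per3, 0.898), -0.03 (Cry1, 0.872) and -0.06 (Cry2, 0.410), with those adjusted p-values in edgeR. A call in the higher direction was made for 1 of 6 members and for 0.286% of 22038 genes. Without factors the log2 difference of Per1 was 0.43 and its adjusted p 0.239. The call of Per2 depended on the fit, since DESeq2 gave an adjusted p of 0.00272 and the fit without factors 0.651.

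Per2 did rise above every homecage mouse after MWM (41.4, 48.02 and 33.1 CPM in homecage mice against 53.1, 54.4 and 50.9 CPM), and overlapped after CFC (41.7, 43.9 and 44.0 CPM against 47.6, 55.7, 49.9 and 42.8 CPM). Without overlap and higher after training were 1 of 6 members after MWM, Per2, beside 3.72% of genes, and 1 of 6 after CFC, Per1, beside 2.55% of genes. Fitted within each task, with all libraries of the experiment sharing a single spread, no member passed. After MWM edgeR called 0.0135% of 22276 genes, and DESeq2 called 80 genes and no member. After CFC edgeR called 0% of 18851 genes, 450 had an unadjusted p under 0.05, and DESeq2 called none. With only the 7 libraries of the WT homecage and WT CFC groups in the fit, Per1 passed (log2 0.50, adjusted p = 0.0392), as 1 of 21 genes called among 18115. The tasks also differ in library type and sequencing run, which cannot be told apart from task. The training difference did not differ between tasks for any member at the threshold, which 0.0136% of 22038 genes passed. Without WT homecage replicate 3 of RNA-Seq 1, however, Cry2 was lower after MWM (log2 -0.42, adjusted p = 0.0137, against -0.25 and 0.505 with it) and its training difference then differed between tasks (log2 0.51, adjusted p = 0.0347), and the log2 differences after MWM were 0.19 in place of 0.35 for Per1, 0.24 in place of 0.37 for Per2 and -0.14 in place of 0.03 for Ciart. In those fits 2418 of 22563 genes were called after MWM, against 3 with the library, and 892 of 22494 for the difference between tasks, so the Cry2 calls stood among many others.

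In CBP KIX/KIX mice the CFC group was set against the mutant homecage group. No member passed; edgeR called 0% of 18851 genes, 2457 had an unadjusted p under 0.05, and DESeq2 called 300 genes and no member. The log2 differences were 0.37 for Ciart, 0.34 for Per3, 0.24 for Per1, 0.13 for Cry2, 0.13 for Cry1 and 0.11 for Per2. Without homecage replicate 3 that of Per1 was 0.62 (adjusted p = 0.0923). This comparison shares its CFC libraries with the genotype comparison after CFC and its homecage libraries with the homecage one, so these values are not independent of those above.

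By group means, WT mice after CFC had the highest Per1, Per2, Cry2 and Ciart of RNA-Seq 2, and the CBP KIX/KIX homecage mice the lowest of all 6 members. Without homecage replicate 3 the Cry1 mean of these mice (12.1 CPM) was above that of WT homecage mice (11.9 CPM), and their Per1 mean was 58.6 ± 15.1 CPM (SD, n = 3). For Per1 the order was WT CFC (109.9 ± 7.34 CPM, SD, n = 4), mutants after CFC (90.5 ± 4.23, n = 4), WT homecage (77.6 ± 7.49, n = 3) and homecage mutants (77.2 ± 39.3, n = 4), and the first step was the only one between neighbours without overlap. For Ciart the order was WT CFC (12.9 ± 1.93 CPM), WT homecage (10.3 ± 0.665), mutants after CFC (8.66 ± 0.821) and homecage mutants (6.63 ± 1.49). Only its second step was without overlap, and that step changes both genotype and training. Per2 followed the order of Ciart, with means of 49.0, 43.2, 39.6 and 36.6 CPM. Its second step was likewise the only one without overlap, the closest libraries being at 41.7 and 41.5 CPM. How many of all genes are without overlap at this step was not counted. For Cry1 and Cry2 all neighbours in the order overlapped.

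The other clock genes were examined by role, in 5 lists of 22 genes, all of which passed the filter in the trained comparison. Of 3 activators, Clock was higher in trained mutants (log2 0.12, adjusted p = 0.0298) and Arntl (0.11) and Npas2 (-0.10) did not pass. Of 5 genes of the REV-ERB and ROR loop, which controls Arntl, the repressors Nr1d1 (log2 -0.34, adjusted p = 0.000254) and Nr1d2 (-0.21, adjusted p = 0.00845) were lower and the 3 ROR genes did not pass. Of 4 PAR bZIP genes and their antagonist Nfil3, Dbp, the E-box driven output factor of the clock, was lower (log2 -0.47, adjusted p = 0.000587). Of the bHLH repressors Bhlhe40 and Bhlhe41, Bhlhe41 was lower (log2 -0.21, adjusted p = 0.0495). None of 8 kinases and ubiquitin ligase parts that act on PER and CRY proteins passed in edgeR. Their median log2 difference was -0.002, close to that of all genes. Bhlhe40 (log2 -0.05) did not pass either. Without factors all 5 calls were lost, with adjusted p-values of 0.513 for Clock, 0.0743 for Nr1d1, 0.108 for Nr1d2, 0.0536 for Dbp and 0.289 for Bhlhe41. None of the 22 other clock genes passed in the WT training comparison.

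**Figure D3:**
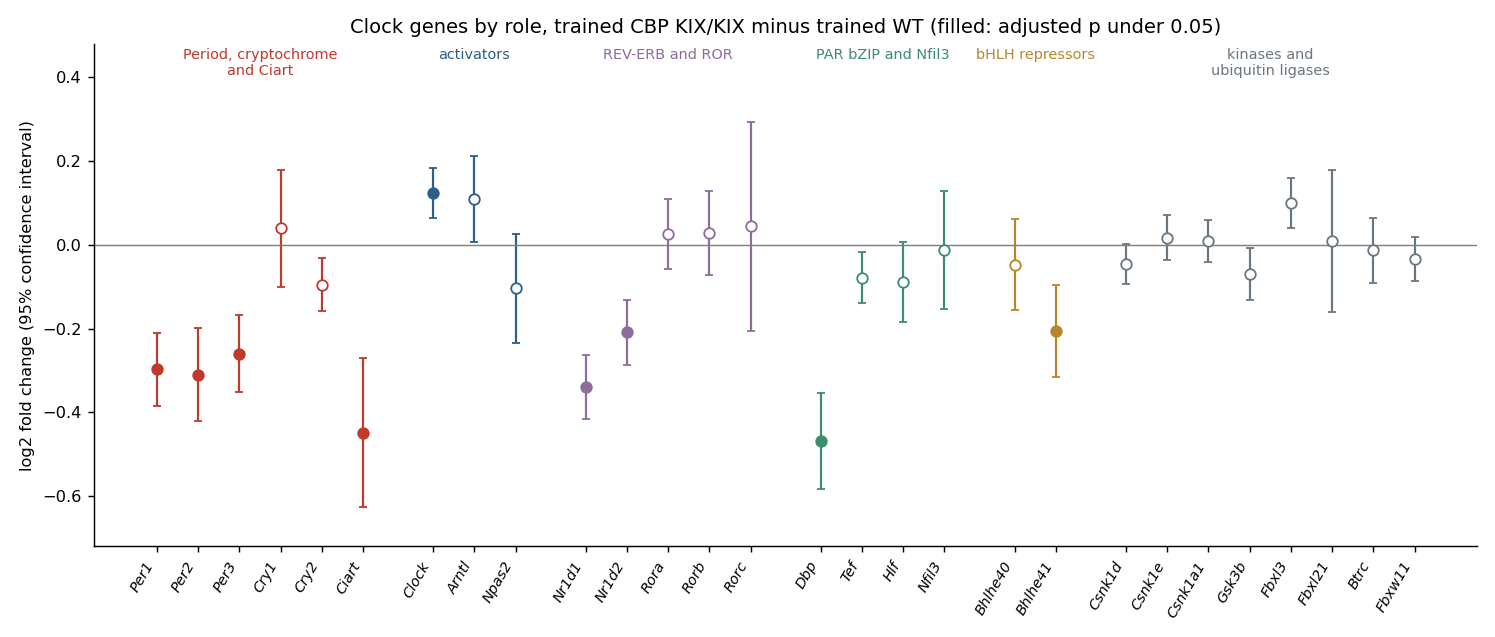
Log2 fold changes with 95% confidence intervals (vertical axis) of 28 clock genes, grouped by role along the horizontal axis, in trained CBP KIX/KIX minus trained WT mice; filled points had an adjusted p under 0.05. The 9 filled points are Per1, Per2, Per3, Ciart, Nr1d1, Nr1d2, Dbp and Bhlhe41 below 0 and Clock above it.

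Activity-induced genes moved in the same comparisons. Of 10 such genes, 5 were lower in trained mutants, among them Fos (log2 -0.51, adjusted p = 0.000937), and 9 were higher in trained than in homecage WT mice. Of 10 glucocorticoid-responsive genes, among them Fkbp5 and Sgk1, none differed by genotype at the threshold in edgeR (median log2 -0.007) and 1, Errfi1, was higher after training. Choroid plexus markers had no single direction in trained mutants: all 10 were lower in the pooled fit with factors (median log2 difference -0.52), all 10 lower after CFC (-0.40) and all 10 higher after MWM (0.50), none past the threshold. In the pooled fit 3 of 6 astrocyte markers passed (Gfap and Aldh1l1 lower, Gja1 higher). Without factors Fos (adjusted p = 0.0536) and these 3 markers (0.108 to 0.146) did not pass in the genotype comparison. For WT training without factors, Fos, Arc, Egr1, Junb and Nr4a1 passed in edgeR. Fosb, Dusp1, Btg2, Ier2 and Npas4 did not (adjusted p from 0.316 to 0.725), nor did Errfi1 (0.0718). In the WT training comparison all 10 choroid plexus markers were higher, none past the threshold, with a median log2 difference of 1.35. With the mean of the choroid plexus markers as a covariate beside the factors, the log2 differences of Per1, Per2, Per3 and Ciart were -0.31, -0.30, -0.26 and -0.43. All 4 passed, in a fit that called 1284 of 21489 genes, against 518 without this covariate. In the WT training comparison with this covariate the log2 difference of Per1 was 0.50 and passed, with 66 of 22038 genes called.

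The genes most like each member were found by Pearson's r of log2 CPM, with the mean of the experiment subtracted, over the 24 libraries and 18263 genes. Points share libraries, depth and dissection, and r is given as a description. Per1 was most like the activity genes Dusp1 (r = 0.91), Nr4a3 (0.88) and Nr4a1 (0.88), and r with Dusp1 was 0.93 when group means were subtracted as well. Ciart was most like Dbp (r = 0.84), followed by Per3 (0.81) and Tmem255b (0.81), and r with Dbp dropped to 0.59 after group means were subtracted. Per2 was most like BC064078 (r = 0.74), Ciart (0.72) and Per1 (0.70). Per3 was most like Ivd (r = 0.95), Epop (0.93) and Sidt1 (0.92).

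Cry2 was most like Trim8 (r = 0.95), Celf3 (0.94) and Cacng7 (0.93), and Cry1 was most like Tmprss9 (r = 0.75), Tamm41 (0.75) and Cep250 (0.74). Among the members, the closest pair was Per3 and Ciart (r = 0.81) and the most distant Per1 and Cry1 (r = 0.02). Several of these values leaned on the CBP KIX/KIX homecage mice. Over the 20 other libraries r was 0.83 for Per1 and Dusp1, 0.87 for Per3 and Ivd, 0.71 for Per3 and Epop, 0.80 for Ciart and Dbp, and 0.58 for Ciart and Per3.

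**Figure D4:**
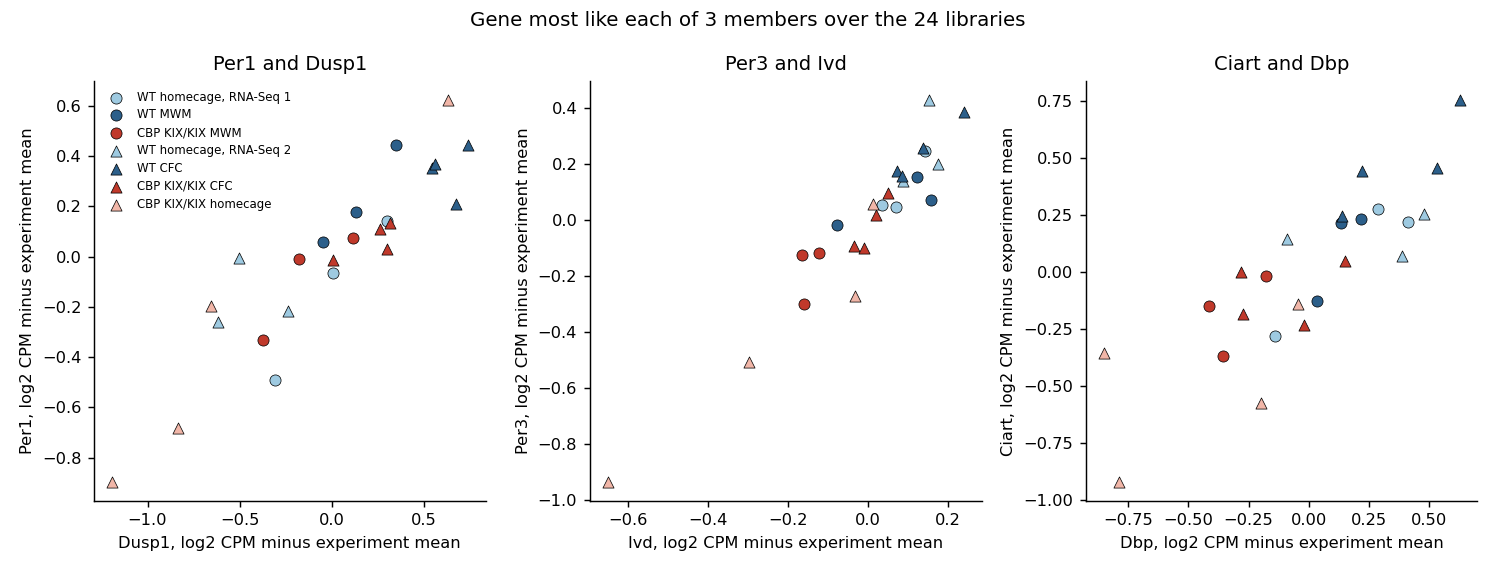
Log2 CPM minus the experiment mean for Per1 against Dusp1, Per3 against Ivd and Ciart against Dbp, with 1 point per library (circles RNA-Seq 1, triangles RNA-Seq 2) and colours for the groups. For Per1 the 4 WT mice after CFC and CBP KIX/KIX homecage replicate 3 lie at the upper right, and for Ciart most mutants lie at the lower left.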

How the data were processed

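RNA was sequenced from the dorsal hippocampus of 24 mice in 7 groups. According to the labels and the study's methods, the authors aligned reads with STAR to mm10 (GRCm38), used SAMtools 1.6, and counted reads per gene with featureCounts 1.4.4; the strand setting and annotation release are not given in the sources used here. The deposited values are raw counts per gene, with no normalization. Of 51826 gene identifiers, 51633 were matched to GENCODE M21. Library totals of 15.4 to 65.7 M counts limit the precision of each level, and replicate pairs differed by more than counting noise.

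Counts were filtered with filterByExpr, scaled by the upper quartile and tested with edgeR 4.0.16 (quasi-likelihood test, R 4.3.3), with Benjamini-Hochberg adjustment over all genes and a threshold of 0.05. The pooled comparisons of trained mice and of WT mice had the experiment and 4 or 3 factors of unwanted variation as covariates. The factors came from a re-implementation of the RUVr method. The fitting code was tested on simulated counts for some of the comparisons. Those counts held no unwanted variation, so the test does not show how well the factors remove it. Levels are CPM (counts per M counts of the library, after upper-quartile scaling), and p-values rest on the spread between mice. In the pooled fits this is the spread left after the factors, which were taken from the same libraries. Alternatives were DESeq2 1.42.0, TMM scaling, other filters, GC-content normalization, a choroid plexus covariate, a replicate block, fits without factors and leaving out each library. The members and gene lists were chosen with earlier results of these data known. The genes named are the 6 members, the listed clock and activity genes, and the 3 genes most like each member.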

Additional observations from a re-analysis of the deposited data

Results flagged for a closer look

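In the CBP KIX/KIX homecage group, the Per2 level of replicate 3 (40.7 CPM) lay apart from the other 3 libraries, of which the nearest was at 35.5 CPM: its gap to that library was 0.885 of the range of the group, above Dixon's critical value at the 95% level for 4 samples. It is the library with raised Fos and Per1. Of 18 combinations of a member and a group of 4 libraries this was the only one to stand out in that way, and chance gives about 1 in 20.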

How the results depend on the processing

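In trained mice 4 members passed, all lower in CBP KIX/KIX. Without factors 0 passed, with 4 genes called in all, and with a replicate block and no factors 1, with 8 genes called. With the homecage libraries added as a stratum and no factors 2 passed, and without homecage replicate 3 in that stratum also 2. Those stratum fits called 24 and 21 genes, and the stratum was added after seeing the data. With DESeq2, and with a replicate block and factors, 5 passed. These 2 fits called 884 and 2883 of 21489 genes, against 518 in the main fit. Leaving out 1 library gave 4 to 5. In trained against homecage WT mice 1 member passed. With DESeq2, a filter at 1 CPM, GC-content normalization or a replicate block 2 passed. Another first fit of the factors, added after seeing the data, also gave 2. These fits called 749, 226, 50, 992 and 231 genes in that order, against 154 in the main fit. Without factors 0 members passed, with 9 genes called, and leaving out 1 library gave 1 to 3. For WT mice after CFC alone the count was 0, and 1 with only the 2 groups compared. Cry2 also passed in trained mice without CBP KIX/KIX MWM replicate 3, where 700 of 21973 genes were called. Per2 passed for WT training without WT homecage replicate 3 of RNA-Seq 1 (2379 of 22494 genes called) or of RNA-Seq 2 (534 of 22683). It also passed without WT CFC replicate 1 (453 of 21947), and all of these counts were above that of the full fit. Per3 passed for mutants after CFC against homecage without homecage replicate 1, where 999 of 18332 genes were called against 0 with it. Cry2 also passed for WT training, being lower, in 1 of the edgeR fits in which Per2 passed (adjusted p = 0.0317). No member that passed changed direction. Same-numbered libraries deviated together with correlations of -0.248 to 0.185 in RNA-Seq 1 and -0.140 to 0.523 in RNA-Seq 2. For different-numbered libraries these were -0.143 to 0.263 and -0.503 to 0.402. The numbers were not taken as pairing mice, but in RNA-Seq 2 they go with depth, and the ranges alone do not settle whether they mark a shared block. Counts over all genes moved far more: 4 to 2883 for trained genotypes (518 as reported) and 9 to 992 for WT training (154), with 201 to 878 and 29 to 2379 when 1 library was left out. The highest of the last came without WT homecage replicate 3 of RNA-Seq 1. Depth and groups of 3 or 4 mice limit the tests within a task.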
